A study of Mus musculus with 5 samples.

Results

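This report describes the last interval of a developmental series of the mouse cerebellum, from postnatal day 21 (P21) to postnatal day 56 (P56). It sets the P56 column of the deposited array table against the P21 column over all 897 probes, with no selection of probes. The series also holds embryonic day 18 (E18), P7 and P14, 5 ages in all, each as total RNA of the cerebellum in 1 column. The labels describe a column as averaging 2 array experiments. They name no treatment, and leave strain, sex and the number of animals unstated. With 1 column a side there is no replicate spread, so no p-value is given and the number of arrays limits the precision.

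At P21 the mouse cerebellum is close to its final layout. The granule cell precursors of the external layer have stopped dividing and moved inward, Purkinje cells carry full dendritic trees, and most axons that will be myelinated have acquired their first sheaths. What follows up to young adulthood is tuning: channel and receptor sets settle, myelin production slows to maintenance, and Bergmann glia and astrocytes take on their adult form.

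Values were taken to be percentages of a probe's brightest age in an experiment, averaged over both experiments, so they compare ages within a probe and say nothing of levels between genes. Under this reading a column reaches 100 only where both experiments peaked at that age: 420 of the 897 probes reach 100 at some age, 477 do not, and the highest value of a probe was never under 67.0%. The authors do not state the scale. Levels under 1% were set to 1% before taking log2, and 7 probes were under 1% at P21 or P56. A gene is said here to have risen or fallen only where P56 and P21 were at least 2-fold apart. Quantile normalization, used below as a check, gave every column the mean distribution of all 5 ages. Medians were 84.5% at E18 and 82.8% at P7, against 42.3% at P21 and 42.0% at P56. Such a reference by itself changes the size of folds between P21 and P56. Kcnma1 went from 0.70 to 0.38, Mog from -0.85 to -0.48 and Tk1 from 2.65 to 3.37 (log2). A call lost under it is therefore not shown to be unsound. Of the probes 787 carry 1 gene symbol, and these name 773 genes. Of 10 genes fixed as cerebellar markers 5 were measured. Pvalb, Calb1, Pcp2 and Gabra6, genes of Purkinje cells, interneurons and granule cells, stood between 78.4% and 100% at both ages, and En1, a patterning gene, stood at 18.2% at P21 and 22.4% at P56.

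The step was small. From P21 to P56 24 probes rose and 20 fell, while 853 stayed within 2-fold. These are 2.68% and 2.23% of the probes, 4.91% together. Over the earlier intervals the share that changed 2-fold either way was 8.58% from E18 to P7, 39.1% from P7 to P14 and 16.4% from P14 to P21. The median probe moved 1.20-fold in either direction, 82.2% of probes stayed within 1.5-fold, and the median difference was 0.03 (log2). By the median movement this step was not the smallest. From E18 to P7 the median probe moved 1.19-fold, and 76.6% of probes stayed within 1.5-fold. Median values were 42.3% at P21 and 42.0% at P56. P56 was the highest of the 5 ages for 132 probes and P21 for 77.

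**Figure D1:**
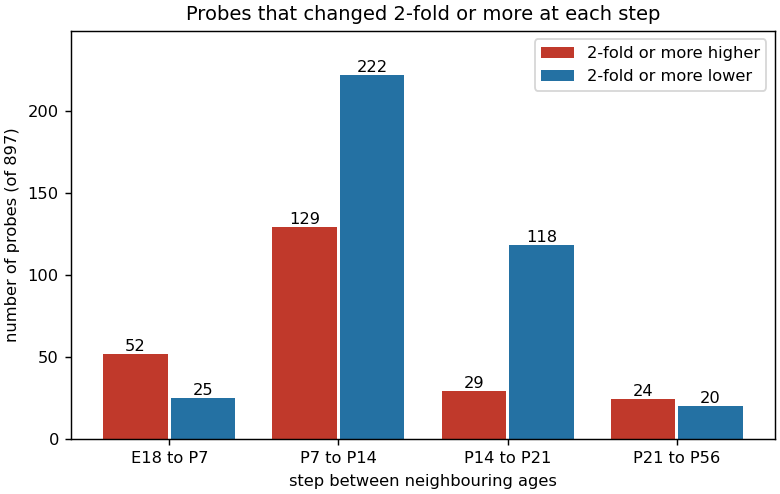
Bars count the probes (of 897) that were 2-fold or more higher (red) or lower (blue) at the later age of each interval. The P21 to P56 pair, 24 and 20, is the shortest, against 129 and 222 from P7 to P14.

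Disagreement between probes of the same gene gives a scale for these differences. In 14 genes with 2 probes, the median gap between the probes' P56 minus P21 differences was 0.37 (log2), or 1.30-fold, which is more than the median movement of all probes. The widest gap was 1.95-fold, at Atp2a3, whose probes gave 0.20 and -0.77. In 6 of the 14 genes both probes had the same sign. This scale leaves out variation between animals and between arrays, which paired probes share. Differences under 2-fold are therefore given below as values, and are not called rises or falls.

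**Figure D2:**
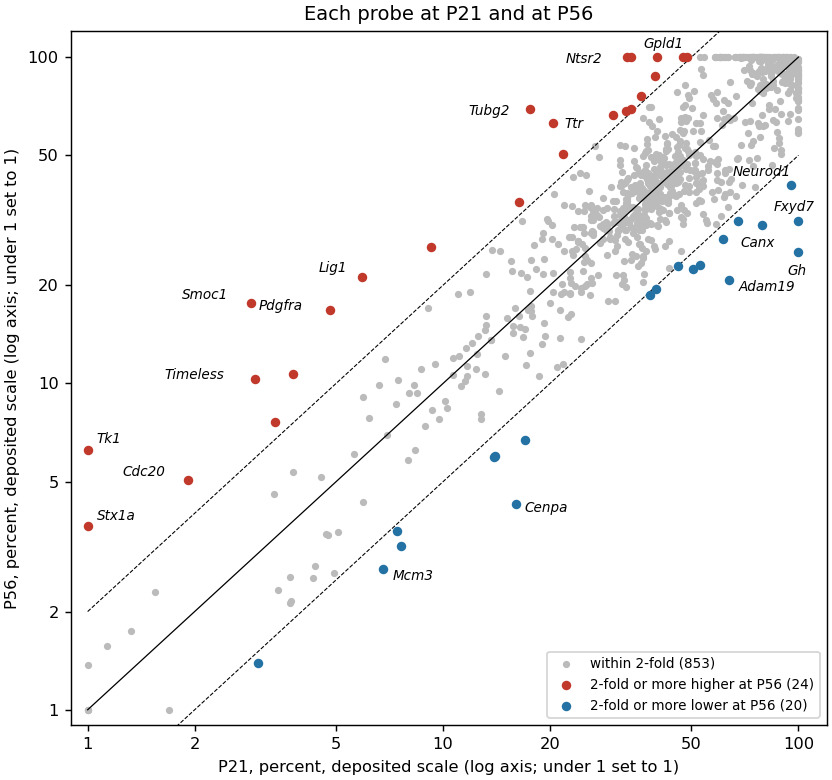
Each point is a probe, with its P21 value on the horizontal and its P56 value on the vertical axis, both in percent on the deposited scale, on log axes; the solid line marks equal values and the dashed lines 2-fold. Most points lie between the dashed lines, and 24 red and 20 blue points lie outside, many of them at low percent values.

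Genes of the cell cycle and DNA replication held 10 of the 39 named genes that changed, and they moved both ways. On this list 42 genes were measured: 4 rose, 6 fell, and the median difference was -0.00 (log2) against 0.04 for all named genes. Over all named genes 2.59% rose and 2.46% fell, 5.05% together, whereas 23.8% of this list did. The list had already dropped to a median of 10.7% at P21 from 100% at P7, and stood at 10.02% at P56. Among 90 named genes outside the list with both values under 25%, 7 changed 2-fold, or 7.78%, against 10 of 35 list genes with both values under 25%. These sets are not matched in level. The 90 genes had medians of 13.6% at P21 and 12.4% at P56, and the 35 list genes 7.63% and 6.69%. Whether low level accounts for the calls of the list was not tested.

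Tk1, which encodes the thymidine kinase that supplies dTTP for replication, stood at 85.0% at E18, 100% at P7, 4.43% at P14, 0.04% at P21 and 6.26% at P56. It was at least 6.26-fold higher at P56 than at P21. Lig1, the ligase that joins Okazaki fragments, stood at 79.1%, 99.4%, 32.8%, 5.93% and 21.2% at the 5 ages in order, and rose 3.57-fold. Timeless, whose product protects the replication fork, stood at 74.8%, 93.5%, 15.1%, 2.95% and 10.3%, and rose 3.50-fold. Cdc20, the activator of the anaphase-promoting complex, stood at 65.8%, 100%, 4.59%, 1.91% and 5.06%, and rose 2.65-fold. In each of these 4 genes P21 was the lowest age, which a choice of genes for a lower value at P21 than at P56 favours. The P56 value remained far below those of E18 and P7.

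The 6 that fell reached their lowest value at P56, which their choice for a low P56 value favours. Cenpa, the histone variant of centromeres, stood at 82.7%, 94.3%, 20.4%, 16.0% and 4.26%, and fell 3.76-fold. Cks2, a small subunit bound to cyclin-dependent kinases, went from 17.0% at P21 to 6.69% at P56 (2.54-fold). Mcm3, a subunit of the replicative helicase, went from 6.79% to 2.70% (2.51-fold). Cdca7 went from 7.63% to 3.17% (2.41-fold), and E2f1, a transcription factor of S-phase genes, from 14.0% to 5.99% (2.34-fold). Prc1, which bundles the microtubules of the spindle midzone, went from 3.02% to 1.39% (2.17-fold). Sister subunits did not follow Mcm3: Mcm2, Mcm4, Mcm5 and Mcm7 differed by between -0.14 and 0.13 (log2). Mki67, the standard marker of dividing cells, stood at 3.74% at P21 and 2.16% at P56, and Pcna differed by 0.30 (log2).

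All 10 calls of this list rest on values below 25%. With every value under 20.4%, the 10th percentile of the table, set to that level, 0 of the 42 genes rose and 0 fell. For the 10 genes this outcome was fixed in advance. None of their P21 or P56 values was above the 21.2% of Lig1 at P56, so such a floor leaves no room for a 2-fold difference.

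Cdc20 and Prc1 are printed here because they belong to the same mitotic programme but moved in opposite directions. Promoters of mitotic genes are known for CCAAT boxes, bound by NF-Y, and for the cell cycle genes homology region, TTTGAA, through which the DREAM complex holds them silent outside division. In the RefSeq promoter table (GRCm38.p6) the 250 bases before each start were searched for CCAAT and TTTGAA on both strands; the matches do not overlap, and are in capitals. Prc1 has 2 listed starts, and the window before the first holds CCAAT and 0 TTTGAA; the second is printed because it holds both. The Cdc20 window lies at chr4:118437344-118437593 on the minus strand, and the Prc1 window at chr7:80294226-80294475 on the plus strand.
Cdc20: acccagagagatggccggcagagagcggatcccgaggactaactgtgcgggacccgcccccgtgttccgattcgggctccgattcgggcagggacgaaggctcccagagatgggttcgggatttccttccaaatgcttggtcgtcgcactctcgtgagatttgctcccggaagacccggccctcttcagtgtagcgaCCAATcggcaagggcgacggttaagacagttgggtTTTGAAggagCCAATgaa
Prc1: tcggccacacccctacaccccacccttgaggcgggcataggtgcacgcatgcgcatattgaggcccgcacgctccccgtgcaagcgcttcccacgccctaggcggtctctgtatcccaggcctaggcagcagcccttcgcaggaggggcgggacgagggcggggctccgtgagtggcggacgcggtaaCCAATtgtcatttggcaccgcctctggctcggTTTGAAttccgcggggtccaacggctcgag
Cdc20 has CCAAT at 53 and 8 bases and TTTGAA at 18 bases before the start, and Prc1 has CCAAT at 62 and TTTGAA at 30. Of all 32851 promoter windows 33.8% hold CCAAT, 16.0% hold TTTGAA and 5.55% hold both. Among the other genes of the list that changed, CCAAT was found for Cenpa, Cks2 and Mcm3 and not for Cdca7, E2f1, Tk1, Lig1 or Timeless, and TTTGAA for 0 of these 8. A match is a description of letters and not a bound site.

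Outside the cell cycle list 20 probes rose. Of these, 9 were highest at E18, 5 at P7, 1 at P14 and 5 at P56; 70.0% were highest at E18 or P7, near the 68.5% of all 897 probes. P21 was the lowest of the 5 ages for 13 of the 20, against 284 (31.7%) of all 897 probes. A choice of probes for a low P21 value favours such a count. Against P14, 12 of the 20 were within 2-fold at P56, 6 were higher and 2 lower. Over all 897 probes 723 were within 2-fold of P14 at P56, 39 were higher and 135 lower. Smoc1, a secreted matrix protein that modulates BMP signalling, stood at 100%, 55.0%, 15.3%, 2.88% and 17.7%, and rose 6.13-fold. Pdgfra, the growth factor receptor that marks oligodendrocyte progenitors, stood at 63.5%, 100%, 12.8%, 4.82% and 16.8%, and rose 3.48-fold. Sfrp1, a secreted Wnt antagonist, stood at 34.7%, 100%, 25.3%, 3.79% and 10.7%, and rose 2.82-fold. Each of these had its lowest value at P21, and each was still under 20% at P56.

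Tubg2, a gamma-tubulin gene, differed from these in level: it stood at 68.0%, 34.2%, 80.7%, 17.5% and 69.3%, and rose 3.95-fold, with its lowest value at P21 and its next lowest at P7. Phb, which encodes prohibitin of the inner mitochondrial membrane, went from 21.7% to 50.6% (2.33-fold), and S100a11, a calcium-binding protein gene, from 9.25% to 26.2% (2.83-fold). Stx1a, a syntaxin of the presynaptic fusion complex, stood at 100%, 59.3%, 33.2%, 0.60% and 3.66%, and was at least 3.66-fold higher at P56 than at P21. Tead2, a transcription factor of the Hippo pathway, rose 2.26-fold from 3.37%.

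Of the 24 probes that rose 5 had their highest level at P56, against 132 of all 897 probes. A choice of probes for a high P56 value favours such a count. Ntsr2, a neurotensin receptor that astrocytes express, climbed at every age, from 3.63% at E18 through 13.8%, 15.4% and 33.0% to 100% at P56, and rose 3.03-fold over the last interval. Gpld1, an enzyme that cleaves the lipid anchor of membrane proteins, stood at 35.0%, 28.6%, 45.5%, 40.1% and 100%, and rose 2.49-fold. Per1, a core gene of the circadian clock and also an immediate early gene, stood at 21.0%, 32.1%, 77.0%, 47.4% and 100%, and rose 2.11-fold, a difference that quantile normalization reduced to 0.57 (log2). Of the other 6 genes of the clock and glucocorticoid list 0 changed 2-fold, where 5.05% of all named genes did. Cry1, a clock repressor, stood at 47.4% at P21 and 64.6% at P56, while Cdkn1a (mean of 2 probes) went from 56.8% to 31.3% (1.82-fold) and Fkbp5 from 32.8% to 19.7%, both of them targets of the glucocorticoid receptor. Of the other 4 immediate early genes 0 changed, Egr1 at 84.4% and 98.3% and Nr4a1 at 100% and 90.5%. The labels give no time of day for the dissections.

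The Per1 promoter is shown because its clock element is well known: CLOCK and BMAL1 bind the E-box CACGTG. The 250 bases before the first of its 2 listed starts, at chr11:69098699-69098948 on the plus strand of GRCm38.p6, hold 1 such match on either strand, in capitals, and 6.02% of all promoter windows hold at least 1.
Per1: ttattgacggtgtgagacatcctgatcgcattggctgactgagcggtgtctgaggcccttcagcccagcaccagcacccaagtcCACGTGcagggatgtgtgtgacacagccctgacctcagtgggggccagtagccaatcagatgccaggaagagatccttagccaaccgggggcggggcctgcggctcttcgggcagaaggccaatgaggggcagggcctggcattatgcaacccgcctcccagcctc
The window before the second start holds 0 matches.

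**Figure D3:**
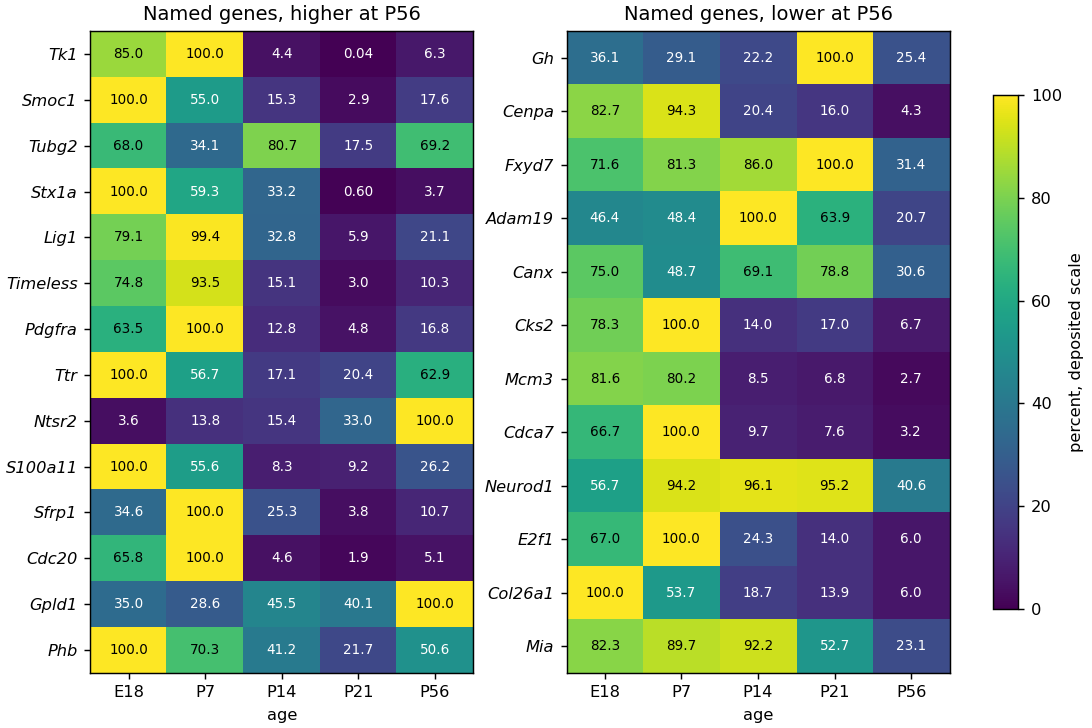
Cells give the deposited percent value at each of the 5 ages for the 12 largest rises with Tk1 and Stx1a (left) and the 12 largest falls (right) from P21 to P56, ordered by the size of the difference. Most genes on the left are darkest at P21, and most on the right are darkest at P56, which the choice of genes by this difference favours.

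Genes that fell had varied courses before P56. Of the 20 probes that fell, P56 was the lowest age for 18, 3 were highest at P21, and 17 were also 2-fold or more lower than at P14. Over all 897 probes these counts were 298, 77 and 135. A choice of probes for a lower value at P56 than at P21 favours such counts. Neurod1, a transcription factor that drives granule neuron differentiation, stood at 56.7%, 94.2%, 96.1%, 95.2% and 40.6%, and fell 2.34-fold only after a plateau from P7 to P21. Adam19, a membrane metalloprotease gene, stood at 46.4%, 48.4%, 100%, 63.9% and 20.7%, and fell 3.08-fold. Mia, which encodes a small secreted protein of cartilage, went from 52.7% to 23.1% (2.28-fold), and Col26a1, a collagen gene, from 13.9% to 5.97% (2.33-fold). Eln, the elastin gene, went from 38.2% to 18.7% (2.05-fold), and Efna2, an ephrin ligand gene of axon guidance, from 45.9% to 22.9% (2.01-fold).

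Gh, the growth hormone gene of the pituitary, stood at 36.2%, 29.1%, 22.2%, 100% and 25.4%. It fell 3.94-fold from a value seen at P21 alone, and without the P21 column its ages differ by less than 2-fold. Fxyd7, a regulator of the sodium pump in brain, stood at 71.6%, 81.3%, 86.0%, 100% and 31.4%, and fell 3.19-fold from its highest age. Canx, which encodes calnexin, a chaperone of the endoplasmic reticulum, stood at 75.0%, 48.7%, 69.1%, 78.8% and 30.6%, and fell 2.57-fold. Anp32a, a histone-binding protein gene, stood at 50.5%, 100%, 18.5%, 50.5% and 22.4%, and fell 2.26-fold to a value near that of P14. Of 36 measured genes of translation, splicing and chromatin Anp32a alone changed, as did Canx alone of 7 genes of protein folding. Over all named genes 5.05% changed, so these counts do not set the lists apart from other genes.

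How far both array experiments moved together can be bounded for the largest differences. Provided that every experiment was itself scaled from 0 to 100, a gap over 50 points between 2 averages is possible only if both experiments moved the same way. This holds for 6 of the 24 probes that rose, among them Ntsr2, Gpld1, Per1 and Tubg2, and for 3 of the 20 that fell, which are Gh, Fxyd7 and Neurod1. For the others the table does not show it. With quantile normalization 9 of the 24 rises and 6 of the 20 falls were no longer 2-fold: Per1 stood at 0.57, Gpld1 at 0.73, Cdc20 at 0.96, Neurod1 at -0.71, Prc1 at -0.78 and Mcm3 at -0.97 (log2), E2f1 just short of 2-fold, and Slc39a9 at 0.75. Its reference, the mean of all 5 ages, changes fold sizes by itself, as given above.

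The limit of 2-fold separates neighbours of nearly the same size. Slc39a9, a zinc transporter gene that rose 2.04-fold, and Slc6a13, a GABA transporter gene of the meninges at 26.7% and 53.3% (1.99-fold), lie on either side of it. A limit of 1.5-fold took in 82 probes that were higher (9.14%) and 78 that were lower (8.70%), or 9.18% and 8.41% of named genes.

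The oligodendrocyte and myelin list was split. Of 12 measured genes 1 rose, Pdgfra of the progenitors, and 0 fell, where 5.05% of all named genes changed. At 1.5-fold 5 were lower and 2 higher, 58.3% of the list against 17.6% of all named genes, but with quantile normalization 0 were lower and 1 higher. Mog, a protein of the outer sheath, stood at 0.47%, 5.22%, 81.4%, 84.2% and 46.8%, 1.80-fold lower at P56 than at P21. Cldn11, which seals the sheath, stood at 14.3%, 20.6%, 82.4%, 89.6% and 50.4% (1.78-fold). Mobp stood at 1.08%, 4.63%, 48.7%, 100% and 60.4% (1.66-fold), and Mag, an adhesion molecule between sheath and axon, at 0.38%, 14.4%, 77.2%, 87.9% and 54.7% (1.61-fold). Gsn, an actin-severing protein gene that oligodendrocytes express, went from 75.4% to 40.1% (1.88-fold). In these 5 genes P56 stood below P21 and above P7; with quantile normalization they differed by -0.53 for Gsn to -0.41 for Mag (log2). The list as a whole had 7 genes higher and 5 lower, with a median of 0.23 (log2) against 0.04 for all named genes. Gstp1, a detoxifying enzyme gene, went from 52.8% to 100%, and Qdpr, Ndrg1, Car2 and Apod were higher by 0.36 to 0.54. In whole tissue, fewer cells of a type and less RNA per cell cannot be told apart.

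Of 9 measured genes of ion channels and pumps 0 changed 2-fold, where 5.05% of all named genes did. At 1.5-fold 4 were higher at P56 and 0 lower, but 0 were higher with quantile normalization, which moved the list's median from 0.15 to 0.04 (log2). That scaling, to the mean of all 5 ages, changes fold sizes by itself, so it does not decide whether the 4 differ. Kcnma1, the large calcium-activated potassium channel, stood at 23.8%, 29.5%, 60.2%, 61.5% and 100% (1.63-fold higher at P56 than at P21). Scn1a, a sodium channel, stood at 10.2%, 25.6%, 48.4%, 63.2% and 100% (1.58-fold), and Kcnj9, a G protein-gated potassium channel of granule cells, at 4.58%, 7.70%, 42.6%, 66.4% and 100% (1.51-fold). Kcnd2, which carries A-type potassium current, was 1.58-fold higher. All 4 had their highest value at P56. With quantile normalization they differed by 0.32 for Kcnj9 to 0.38 for Kcnma1 (log2). Kcna1, Kcnab1 and Atp2a2 differed by 0.15, 0.05 and -0.10, Atp2a3 (mean of 2 probes) by -0.29, and Atp1b2, a sodium pump subunit of astrocytes, by -0.43.

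**Figure D4:**
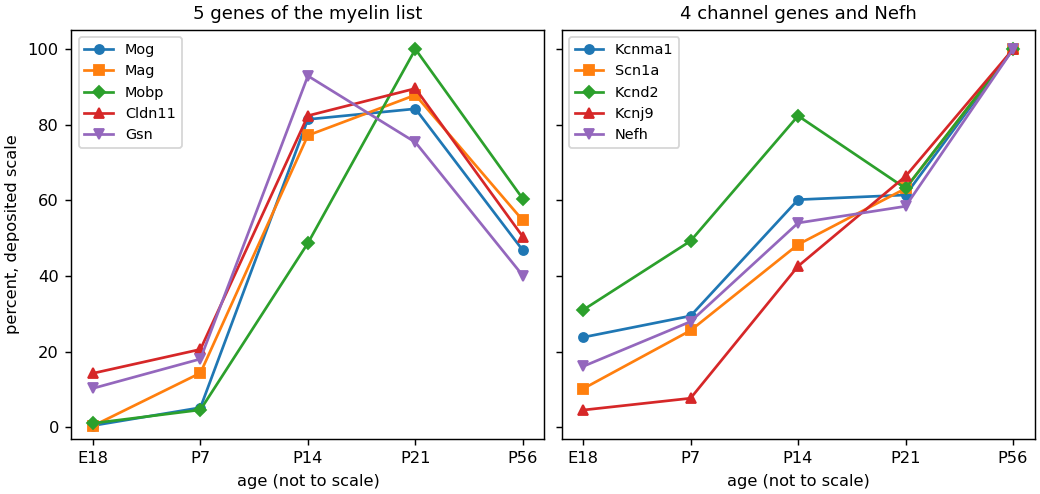
Lines join the deposited percent values at E18, P7, P14, P21 and P56 for 5 myelin list genes (left) and for 4 channel genes with Nefh (right). The 5 genes on the left stand between 40.1% and 60.4% at P56, below their P21 values, while those on the right all reach 100% at P56. The genes were chosen by their P56 minus P21 difference, so the contrast of the panels follows from the choice. Of the 12 measured myelin list genes the other 7 were higher at P56. Of the 9 measured channel and pump genes 3 were lower, and Nefh is from another list.

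Among lists of mature neurons the only 2-fold difference was in Stx1a, and with 5.05% of all named genes changed, counts of 0 in short lists set them apart from no other genes. Of 14 genes of Purkinje cells and GABAergic neurons 0 changed, 12 were higher at P56, and the median was 0.26 (log2) against 0.04 for all named genes. Over all named genes 413 of 773 were higher. The 12 include Ebf1, Ebf2, Ebf3 and En1, which were highest at E18 and stood at 34.1% or less at P56. Ebf3 counts as higher only as a mean of 2 probes of opposite sign, 0.45 and -0.19 (log2). Pvalb stood at 100% at P21 and 96.6% at P56, Pcp2 at 81.3% and 82.7%, and Gad1, which makes GABA, at 77.5% and 100%. Nefh, the heavy neurofilament of large axons, went from 58.5% to 100% (1.71-fold). Of 12 granule cell genes 0 changed, with a median of 0.13, and Kcnd2 and Kcnj9, given above, were 1.5-fold or more higher. Gabra6 stood at 97.4% and 99.8%, and Gabrd, its partner in extrasynaptic GABA-A receptors, at 94.6% and 79.5%. Of 5 receptor genes 0 changed, between -0.25 for Gabrd and 0.31 for Gria1. Of 12 calcium signalling genes 0 changed, between -0.45 for Calm3 and 0.38 for Ryr2. Of 16 synaptic vesicle genes 1 rose, Stx1a, and the other 15 lay between -0.52 for Vamp2 and 0.43 for Snap25.

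Among 17 measured astrocyte genes Ntsr2 was the 1 that rose and 0 fell, a share near the 5.05% of all named genes, and the median difference was 0.15 (log2). Dao, the D-amino acid oxidase of Bergmann glia, stood at 0.02% at E18 and P7, then at 36.6%, 60.3% and 100% (1.66-fold higher at P56 than at P21). Gfap and Aqp4 differed by 0.15 and -0.04. Tnc, an early matrix protein, went from 14.4% to 9.49% (1.51-fold). Of 6 Notch pathway genes 0 changed, a count that does not set so short a list apart from all named genes.

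Of 13 measured genes of immature neurons 0 rose and 0 fell, 8 were lower at P56 (357 of all 773 named genes were), and the median was -0.12 (log2). A count of 0 in so short a list is near the 5.05% of all named genes. Marcksl1 and Marcks, actin-linked growth cone proteins, went from 36.6% to 20.4% (1.79-fold) and from 29.2% to 17.9% (1.63-fold). Sox4 stood at 3.71% and 2.56%, and Igfbpl1 was under 1% at both ages (with quantile normalization it differed by -1.55, past 2-fold). Of 8 progenitor genes 1 rose, Sfrp1, and 1 fell, Neurod1; Mycl stood at 3.71% and 2.13%, and Mycn at 1.55% and 2.29%. The 5 imprinted genes had a median of 0.35, with Nnat at 20.3% and 30.7% and Peg3 at 78.7% and 100%.

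All 4 cholesterol synthesis genes were lower at P56, none past 2-fold, and their median of -0.56 (log2) was the lowest of the lists with at least 3 measured genes on the deposited scale. Sqle, squalene epoxidase, stood at 95.4%, 82.9%, 74.3%, 43.1% and 22.6%, 1.91-fold lower at P56 than at P21. Idi1 went from 64.8% to 42.4% (1.53-fold), Fdps from 62.3% to 44.0% (1.42-fold) and Fdft1 from 42.2% to 37.0% (1.14-fold).  Quantile normalization moved the list's median to -0.31, above the -0.46 of the vessel list, with 1 of the 4, Sqle, past 2-fold.

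Among markers of other cells in the dissected tissue, Ttr was the only gene 2-fold apart. Ttr, the thyroid hormone carrier that the choroid plexus makes in bulk, stood at 100%, 56.7%, 17.1%, 20.4% and 62.9%, and rose 3.08-fold. It was the only one of 4 choroid plexus markers measured, and Igfbp2, the other gene of that list, stood at 20.2% and 27.7%. How much choroid plexus each dissection held was not tested. Of 16 genes of meninges and connective tissue 0 changed 2-fold, but 2 were higher and 4 lower at 1.5-fold, 37.5% against 17.6% of all named genes. Eln, Col26a1 and Hyal2, which fell, are not on this list, so the count depends on its membership. Slc6a13, given above, was 1.99-fold higher, and Anxa2, a membrane-binding annexin gene, was 1.70-fold higher. Vcan, a matrix proteoglycan, went from 4.93% to 2.63% (1.87-fold lower), and Serpinh1, the collagen chaperone, from 24.5% to 13.7% (1.80-fold lower). Of 5 vessel genes 0 changed, with a median of -0.44: Col4a1, a basement membrane collagen, went from 20.9% to 11.2% (1.86-fold), and Pltp, a lipid transfer protein, from 60.2% to 100% (1.66-fold). With 5.05% of all named genes changed 2-fold, counts of 0 in lists this short do not set them apart. Of the microglial markers 2 were measured, Ctss at 94.7% and 100% and Laptm5 at 67.3% and 48.9%. Of 3 erythroid markers 0 were measured, and Ank1, the red cell ankyrin gene and the only measured gene of that list, differed by 0.20 (log2).

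**Figure D5:**
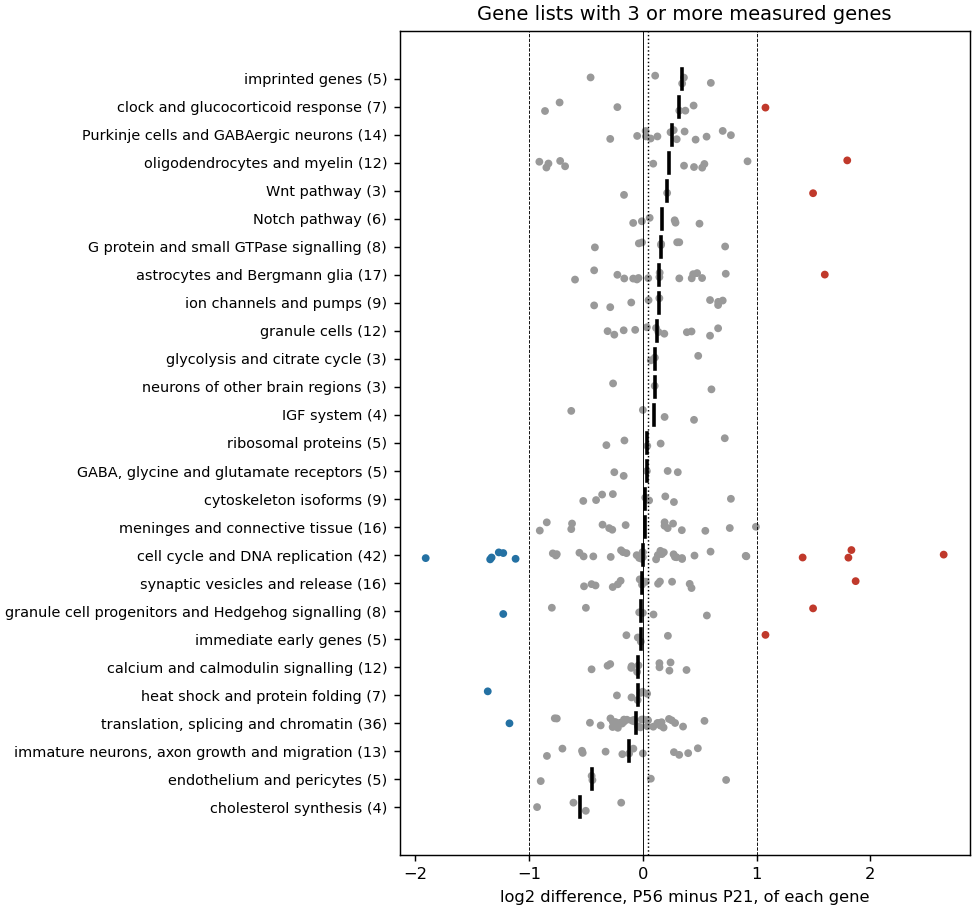
Each point is the log2 difference, P56 minus P21, of a gene in the list named on the left, with the number of measured genes in brackets; red and blue points are past 2-fold (dashed lines), black bars are list medians and the dotted line is the median of all named genes. Among lists with 3 or more measured genes, medians lie between -0.56 for cholesterol synthesis and 0.35 for imprinted genes, and the widest spread is in the cell cycle list.

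The remaining lists were short. With 5.05% of all named genes changed, counts of 0 do not set them apart from other genes. Of 5 ribosomal protein genes 0 changed, with Rps19 at 32.5% and 53.6%. Of 9 cytoskeleton genes 0 changed, with Actb, the common actin, at 46.7% and 35.1%. Of 8 genes of G protein signalling 0 changed, with Rit2, a neuronal small GTPase, at 60.6% and 100%. Of 4 IGF system genes 0 changed, and Igfbp4 went from 32.2% to 20.8%. The Wnt list of 3 held Sfrp1, while Sfrp2 stood at 9.31% and 8.30%. Of 3 neuropeptide genes of other brain regions 0 changed, with Sst at 5.97% and 9.07%. The 3 glycolysis genes differed by 0.07 to 0.49 (log2), and 0 respiratory chain genes were among the named probes.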

How the data were processed

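Total RNA of mouse cerebellum at 5 ages was measured on arrays. The authors' columns average 2 array experiments, per the labels, which do not say how the arrays were processed. The deposited unit was taken as percent of a probe's brightest age within an experiment, then averaged. This is inferred from the values (none above 100, 420 of 897 probes at 100 at some age) and not stated by the authors; whether scaling came before averaging is unsure.

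Values under 1% were set to 1%, and P56 minus P21 was taken on the log2 scale with Python 3.11.15 and pandas 2.3.3. Genes with 2 probes were averaged for lists. Symbols come from the platform annotation; 784 of 787 were found by gene identifier in RefSeq (GRCm38.p6). In the other probes, 16 have several symbols and 94 none. The calculation was tested on simulated data.

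The comparison and all 31 gene lists were chosen with earlier results of these data known, and give no independent support. Named were the 12 largest rises and falls at or above 1%, all bounds, and the 4 most different genes of each list (every gene in lists under 3). Other genes were named after their values were seen.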

Additional observations from a re-analysis of the deposited data

How the results depend on the processing

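No paired analysis was possible because each age has 1 column. The 24 rises and 20 falls became 13 and 10 where low values were raised to the 10th percentile, 82 and 78 at 1.5-fold, 9 and 4 at 3-fold, and 63 and 36 by a difference of 25 points or more. Restricted to probes at 10% or more at both ages, a choice made after seeing the data, they were 14 and 12. A pseudocount of 1 gave 24 and 15, columns divided by their medians 26 and 20, quantile normalization 19 and 17, probes at or above 1% at all ages 22 and 20, and 1 value per gene 20 and 19, with medians between -0.00 and 0.04 (log2). With P14 in place of P21, 39 rose and 135 fell, with a median of -0.36, and of 117 named genes and probes 30 had the opposite sign. Among those 2-fold apart from P21 to P56 these were Tubg2 at -0.22, Lig1 at -0.63, Timeless at -0.55, Sfrp1 at -1.24, Stx1a at -3.18, Gh at 0.19 and Anp32a at 0.28. Of 26 probes named for their size, 15 were no longer 2-fold apart with the floor at the 10th percentile and 5 with quantile normalization (9 of all 24 rises and 6 of all 20 falls), and 0 with a pseudocount or with columns divided by their medians. Low percent values limit what a fold shows: 4 of the 24 rises and 4 of the 20 falls lie wholly under 10%.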

Other observations

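Among the 44 probes that were 2-fold apart, 5 carry no symbol in the annotation. The largest of these differences was in a probe that stood at 15.9%, 16.8%, 28.3%, 33.9% and 100% at the 5 ages in order, 2.95-fold higher at P56 than at P21. Another stood at 27.3%, 53.1%, 49.7%, 48.6% and 100% (2.06-fold higher). Both had their highest value at P56, and both lie more than 50 points apart. The single unnamed probe that fell went from 67.7% to 31.5%.

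Several genes that no list holds were also 2-fold apart. Polr2a, the largest subunit of RNA polymerase II, stood at 82.9%, 98.8%, 63.3%, 35.9% and 76.0%, and rose 2.12-fold. Aldh2, the mitochondrial aldehyde dehydrogenase, stood at 100%, 55.1%, 61.2%, 39.4% and 87.4%, and rose 2.22-fold. Cmtm7 rose 2.10-fold, from 32.7% to 68.6%. P21 was the lowest age of all 3, which their choice for a low P21 value favours. Zfp57, a zinc finger gene known for guarding imprints, stood at 100%, 71.4%, 51.0%, 7.44% and 3.53%, and fell 2.11-fold. Hyal2, a hyaluronidase gene, went from 39.7% to 19.4% (2.04-fold), and Cd99, a cell adhesion gene, from 61.3% to 27.7% (2.21-fold). With quantile normalization Polr2a stood at 0.67, Aldh2 at 0.60, Cmtm7 at 0.84 and Zfp57 at -0.69 (log2), all under 2-fold.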
